A study of Mus musculus with 6 samples.

Results

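The integrated stress response and the serine synthesis pathway that it feeds were followed through 10 genes, namely Eif2ak3, Atf4, Ddit3, Trib3, Asns, Chac1, Sesn2, Psat1, Phgdh and Mthfd2. They were taken by symbol from a table of 22081 genes, in which each symbol had a single row. The rule itself used no measured value, although earlier results of these data were known when the genes were chosen. RNA-seq had been done on muscle stem cells (MuSCs, also called satellite cells) that were isolated from skeletal muscle of adult C57BL/6 mice of either sex by depletion of SCA1+, CD45+ and CD31+ cells and sorting for integrin alpha7 or a Pax7 reporter. There were 3 libraries of control MuSCs and 3 libraries of Taf4asKO MuSCs. In Taf4asKO mice, both Taf4a alleles carried loxP sites (Taf4a fl/fl) and a tamoxifen-inducible Cre was driven from the Pax7 locus (Pax7CE), so that recombination was limited to Pax7-expressing cells after tamoxifen. The control libraries are titled WT and have the genotype label Control. The study describes its controls as littermates that also carried Taf4a fl/fl, without or with Cre, and whether the controls of these libraries received tamoxifen is not given in the sources used here. TAF4A, the product of the gene listed as Taf4, is a subunit of the general transcription factor TFIID, and the study asked which genes depend on it in MuSCs. Each library was made from 10 ng of total RNA.

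In the integrated stress response, kinases that sense different stresses phosphorylate the translation factor eIF2 alpha. Global protein synthesis then falls, whereas a few mRNAs, that of the transcription factor ATF4 foremost, are translated more efficiently. ATF4 turns on genes for amino acid synthesis and uptake, for the serine pathway and for feedback control. Much of the control of ATF4 is thus exerted on its translation, which the mRNA levels given here do not measure.

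Of the 10 genes, 3 differed between Taf4asKO and control MuSCs. Ddit3 rose 2.04-fold, Psat1 fell 2.06-fold and Phgdh fell 1.97-fold. The 7 others, Atf4 included, did not pass the test. A gene was called when its adjusted p was under 0.05 and its fold change at least 1.3 by limma on log2(normalized count + 1), and all 10 genes reached the mean normalized count of 5 that was required for the test. Thus 3 of 10 genes were called, against 12.6% of the 18562 genes tested. By direction, 2 of 10 were lower, against 6.71% of all genes, and 1 of 10 was higher, against 5.93%. The 3 control values lay entirely above or below the 3 Taf4asKO values for 3 of 10 genes, against 33.0% of all genes tested, so that separation of the groups was no more frequent here than elsewhere in the table. The median log2 fold change was 0.065 over the 10 genes and 0.004 over all genes tested.

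**Figure D1:**
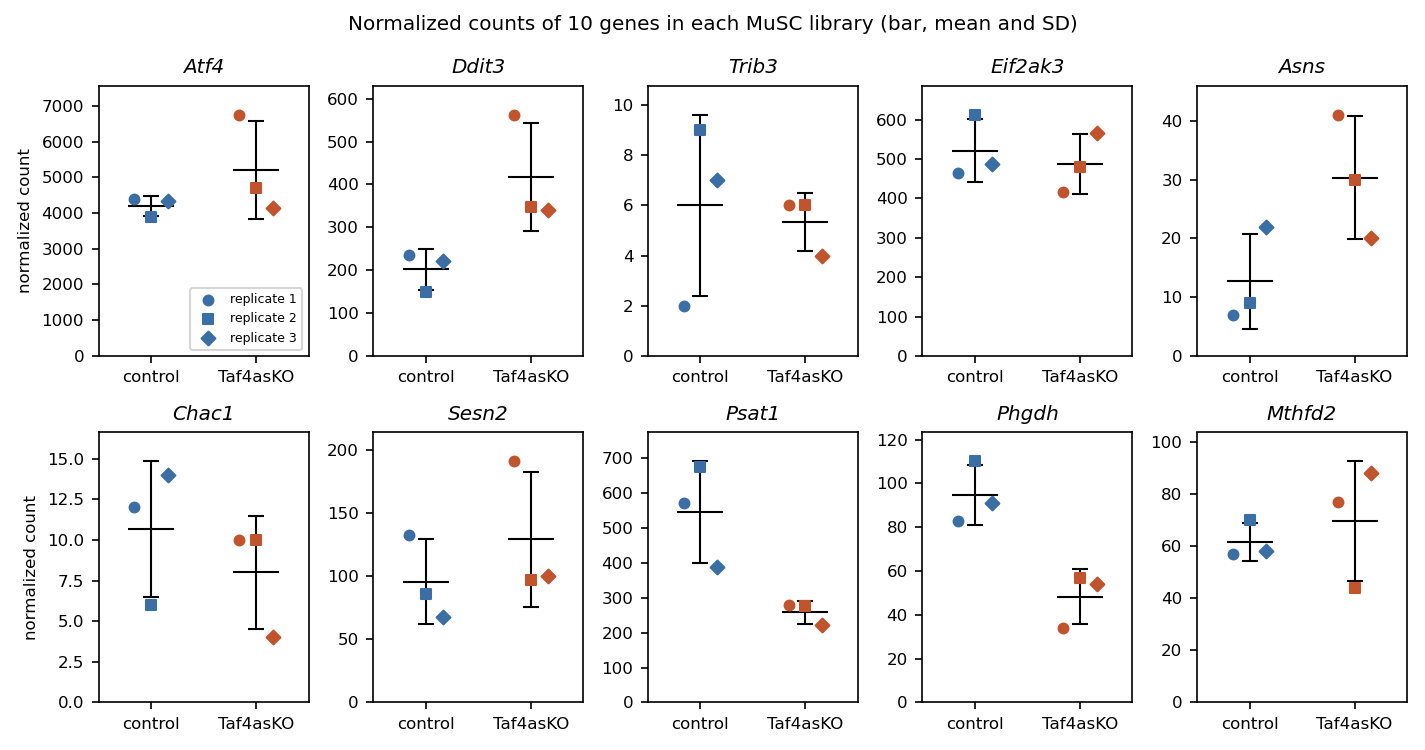
Normalized counts (y axes, linear, from 0, with a scale of their own for each gene) of the 10 genes in the 3 control and 3 Taf4asKO libraries. Symbols mark the replicate number, and the horizontal line and bar give the mean and SD. The groups are apart for Ddit3, Psat1 and Phgdh, and Taf4asKO replicate 1 is the highest of its group for Atf4, Ddit3, Asns, Sesn2 and Psat1.

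The libraries held 12338676 to 14551732 normalized counts each. Taf4 itself did not separate the labels, with 478 to 613 normalized counts in control and 565 to 631 in Taf4asKO libraries (log2 fold change 0.13, adjusted p = 0.524). The deleted exons cannot be told apart in gene totals, so the deletion was not checked here and Taf4asKO stands for libraries labelled so. Of 8 MuSC markers, all detected in every library, 3 were lower (Myf5, Itga7 and Cdh15) and 1 was higher (Vcam1) in Taf4asKO. Markers of other cells were also above 0 in every library, and a difference in the number of cells of a type cannot be told apart from a difference in RNA per cell in bulk samples. Of 4 Schwann and glial markers 3 were higher, with summed normalized counts of 842 to 2255 in control and 2757 to 3300 in Taf4asKO, and of 4 smooth muscle and pericyte markers 2 were higher (9064 to 14020 and 13923 to 16199). None of 6 fibro-adipogenic, 5 endothelial, 5 myofibre and 3 haematopoietic markers was called by limma, although 2, 4, 0 and 1 of them had an unadjusted p under 0.05 5, 2, 0 and 1 were called once the replicate block was added, and limma-voom called 0. Their sums ran from 9788 to 48619 and 30043 to 57993, from 878 to 1263 and 1389 to 1680, from 1170 to 3618 and 2045 to 2602, and from 422 to 538 and 666 to 924 in control and Taf4asKO. Of 6 early genes that tissue dissociation induces, Fos, Egr1 and Ier2 were higher and Hspa1a and Hspa1b lower, with sums of 178030 to 198857 in control and 251485 to 297967 in Taf4asKO, highest in Taf4asKO replicate 1. The part of these markers in the differences reported here was not tested.

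Promoter sequence is shown for the 3 genes that were called and for Asns, because TAF4A and the CCAAT-binding factor NF-Y were studied together in these cells and because ATF4 acts through C/EBP-ATF response elements. The windows are the 250 bases before the RefSeq start (GRCm38.p6, strand of the gene, 5′ to 3′), and capitals mark CCAAT, read on either strand, or, in Asns, the letters TGATGNAA of the C/EBP-ATF response element. Ddit3 lies at chr10:127290543-127290792 (+), Psat1 at chr19:15925060-15925309 (-), Phgdh at chr3:98339970-98340219 (-), and the 100 bases of Asns at chr6:7693225-7693324 (-). The last bases shown for Ddit3, Phgdh and Asns lie inside these genes as deposited, whose starts differ from RefSeq. In Asns this includes the marked letters.
Ddit3: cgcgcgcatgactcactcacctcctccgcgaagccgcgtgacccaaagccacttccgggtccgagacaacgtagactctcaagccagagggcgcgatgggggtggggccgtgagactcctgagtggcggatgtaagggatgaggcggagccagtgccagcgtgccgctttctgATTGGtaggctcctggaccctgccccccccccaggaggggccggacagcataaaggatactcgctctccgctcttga
Psat1: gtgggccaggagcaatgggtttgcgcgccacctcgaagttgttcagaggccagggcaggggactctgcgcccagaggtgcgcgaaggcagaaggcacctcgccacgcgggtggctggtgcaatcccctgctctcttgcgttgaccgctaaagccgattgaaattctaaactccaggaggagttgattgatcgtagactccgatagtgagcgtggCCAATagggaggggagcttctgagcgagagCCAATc
Phgdh: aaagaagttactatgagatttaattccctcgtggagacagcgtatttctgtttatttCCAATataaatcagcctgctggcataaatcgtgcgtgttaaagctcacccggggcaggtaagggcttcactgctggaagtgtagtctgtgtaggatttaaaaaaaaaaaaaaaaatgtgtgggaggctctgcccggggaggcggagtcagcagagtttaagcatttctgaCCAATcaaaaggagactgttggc
Asns: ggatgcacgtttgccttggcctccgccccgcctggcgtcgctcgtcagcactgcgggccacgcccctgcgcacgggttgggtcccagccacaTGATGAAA

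CCAAT was found in 8 of the 10 genes, that is in all but Asns and Trib3, and in 33.8% of 32851 RefSeq windows of this length. Ddit3 held 1 match on the opposite strand, with its first base at -77 from the start. Psat1 held matches at -36 and -6 in 1 of its 2 windows, and Phgdh at -193 and -23. Of the genes that were not called, Eif2ak3 held 6 matches, Chac1 and Mthfd2 3 each, and Atf4 and Sesn2 2 each. TGATGNAA was found in 2 of the 10 genes, at -23 to -16 in Asns and on the opposite strand at -193 to -186 in Chac1, against 3.45% of all windows and 1.98% of the windows of tested genes. The ER stress response element (CCAAT, any 9 bases, CCACG) was found in none of the 10 and in 0.113% of all windows. Its first letters are a CCAAT match of their own, whereas no CCAAT and TGATGNAA matches overlapped. A match of letters is a description and does not show binding.

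The sensor kinase in this set did not pass the test, and the other eIF2 alpha kinases are given with the paralogs below. Eif2ak3 (ENSMUSG00000031668, mm10 chr6:70844515-70905245, + strand) encodes PERK, the eIF2 alpha kinase that senses unfolded proteins in the endoplasmic reticulum (ER). The control libraries held 464, 612 and 487 normalized counts, and the Taf4asKO libraries 415, 481 and 566. The groups overlapped. The means were 521 ± 79.6 and 487.3 ± 75.7 (SD, n = 3 each), with a log2 fold change of -0.10 (SE 0.15, 95% interval -0.43 to 0.24, adjusted p = 0.717). Of its 6026 exon bases 485 are shared with Gm43292 on the other strand.

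Atf4 (ENSMUSG00000042406, chr15:80255184-80257540, + strand), the transcription factor at the centre of the response, was by far the most abundant of the 10 mRNAs. Its values were 4404, 3874 and 4322 in control and 6744, 4693 and 4147 in Taf4asKO MuSCs. A single library, Taf4asKO replicate 1, was far above the rest, and Taf4asKO replicate 3 fell within the control range. The means of 4200 ± 285 and 5195 ± 1369 (SD, n = 3 each) gave a log2 fold change of 0.28 (SE 0.16, 95% interval -0.08 to 0.63, adjusted p = 0.286), and 0.073 without Taf4asKO replicate 1.

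Ddit3 (ENSMUSG00000025408, chr10:127290774-127296288, + strand) encodes CHOP, a transcription factor that ATF4 induces and that is known for its role in stress-related cell death. Normalized counts were 235, 148 and 222 in the controls, compared with 562, 347 and 341 in Taf4asKO MuSCs. Every Taf4asKO library was above every control library. The means rose from 201.7 ± 46.9 to 416.7 ± 125.9 (SD, n = 3 each), with a log2 fold change of 1.03 (SE 0.23, 95% interval 0.52 to 1.54, adjusted p = 0.0167). Libraries with the same replicate number differed by 1.25, 1.22 and 0.62 on the log2 scale. Without Taf4asKO replicate 1 the log2 fold change was 0.80 and the call was lost (adjusted p = 0.0621), while the other 12 of 13 alternative settings kept it. In the annotation 105 of 1713 exon bases are shared with a further Ddit3 entry on the same strand, 68 with Mars and 13 with Gm4189 on the other strand, and reads assigned to several genes had been dropped.

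Trib3 (ENSMUSG00000032715, chr2:152337422-152344032, - strand), a pseudokinase gene induced by ATF4 and CHOP that restrains the response, had very few counts. In control MuSCs 2, 9 and 7 normalized counts were recorded, and in Taf4asKO MuSCs 6, 6 and 4. The log2 fold change was 0.01 (SE 0.55, adjusted p = 0.994) with a 95% interval from -1.22 to 1.24, so that a change of the size seen for Ddit3 was not detectable at this depth. Its sign turned under several settings, to -0.52 without control replicate 1.

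Asns (ENSMUSG00000029752, chr6:7675169-7693254, - strand) encodes asparagine synthetase, a classical ATF4 target. The control libraries held 7, 9 and 22 normalized counts, and the Taf4asKO libraries 41, 30 and 20. Taf4asKO replicates 1 and 2 were above all controls, whereas Taf4asKO replicate 3 was below control replicate 3. The means were 12.7 ± 8.1 and 30.3 ± 10.5 (SD, n = 3 each). The log2 fold change of 1.298 (SE 0.45, 95% interval 0.29 to 2.31) was larger than that of Ddit3 but missed the threshold (adjusted p = 0.0892). Without control replicate 3 it was 1.75 and passed (adjusted p = 0.0297). Control replicate 3 had the highest summed fibro-adipogenic markers of the controls (48619). Taf4asKO replicate 1, with the highest Asns value, had the lowest sum of its group (30043). SCA1+ cells, which include fibro-adipogenic cells, had been depleted before the sort, and their part in the Asns values was not tested.

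Sesn2 (ENSMUSG00000028893, chr4:132492032-132510501, - strand) encodes Sestrin 2, a leucine sensor that inhibits mTORC1. Normalized counts were 133, 86 and 68 in the controls, compared with 191, 97 and 100 in Taf4asKO MuSCs. Each Taf4asKO library was above the control library of the same number, by 0.52, 0.17 and 0.55 on the log2 scale, yet the groups overlapped. The log2 fold change was 0.41 (SE 0.31, 95% interval -0.27 to 1.10, adjusted p = 0.413).

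Chac1 (ENSMUSG00000027313, chr2:119351229-119354381, + strand), which encodes a glutathione-degrading enzyme downstream of ATF4 and CHOP, also had few counts. In control MuSCs 12, 6 and 14 normalized counts were recorded, and in Taf4asKO MuSCs 10, 10 and 4. The groups overlapped, with a log2 fold change of -0.39 (SE 0.49, 95% interval -1.48 to 0.70, adjusted p = 0.645).

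**Figure D2:**
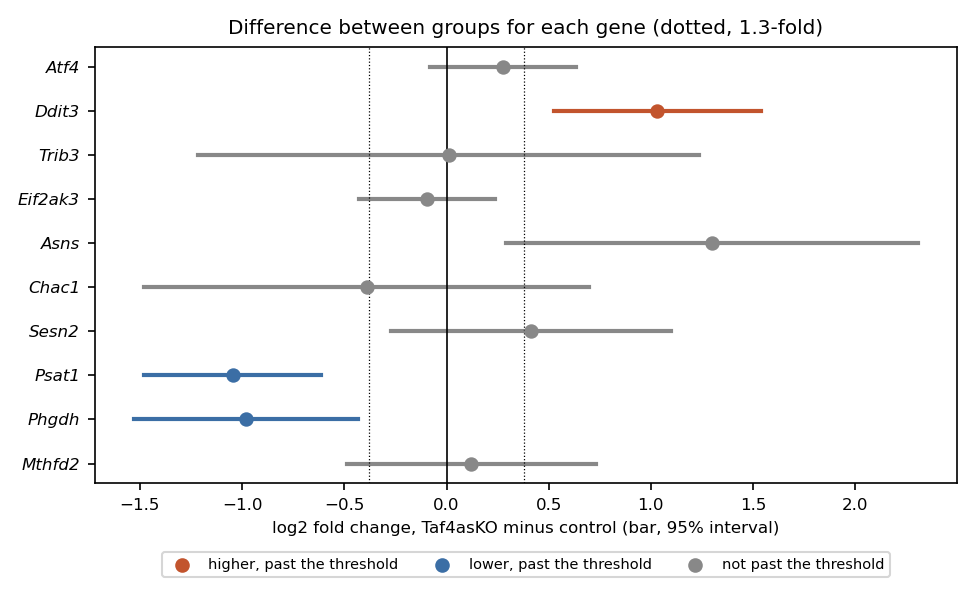
Log2 fold change of Taf4asKO minus control (x axis) for each of the 10 genes, with the 95% interval as a bar and the 1.3-fold limits as dotted lines. Ddit3 (red) lies at 1.03, Psat1 and Phgdh (blue) at -1.05 and -0.98, and the widest intervals are those of Trib3, Chac1 and Asns, the genes with the lowest counts.

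The enzymes that begin serine synthesis both fell. Phgdh (ENSMUSG00000053398, chr3:98313170-98339990, - strand) encodes phosphoglycerate dehydrogenase, which commits the glycolytic intermediate 3-phosphoglycerate to serine. The control libraries held 83, 110 and 91 normalized counts, and the Taf4asKO libraries 34, 57 and 54. All controls were above all Taf4asKO libraries, and the means fell from 94.7 ± 13.9 to 48.3 ± 12.5 (SD, n = 3 each). The log2 fold change was -0.98 (SE 0.25, 95% interval -1.53 to -0.43, adjusted p = 0.0282). Libraries of the same number differed by -1.26, -0.94 and -0.74. The call was lost when Taf4asKO replicate 1 (-0.75, adjusted p = 0.0888), 2 (-1.11, adjusted p = 0.0582) or 3 (-1.08, adjusted p = 0.0699) or control replicate 2 (-0.87, adjusted p = 0.0528) or 3 (-1.004, adjusted p = 0.0592) was left out. Phgdh has an annotated processed pseudogene, Phgdh-ps1, and reads that matched several places had been dropped.

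Psat1 (ENSMUSG00000024640, chr19:15904678-15925059, - strand) encodes phosphoserine aminotransferase, the next enzyme of the pathway. Normalized counts were 573, 676 and 389 in the controls, compared with 279, 276 and 221 in Taf4asKO MuSCs. The Taf4asKO libraries lay close together, and all were below the lowest control. The means fell from 546 ± 145 to 258.7 ± 32.7 (SD, n = 3 each), with a log2 fold change of -1.05 (SE 0.19, 95% interval -1.48 to -0.61, adjusted p = 0.00756). Libraries of the same number differed by -1.04, -1.29 and -0.81. The call was kept in 13 of 13 alternative settings, with log2 fold changes from -1.27 to -0.87.

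Mthfd2 (ENSMUSG00000005667, chr6:83305691-83317606, - strand), the mitochondrial folate enzyme that carries serine-derived carbon units towards formate, did not pass the test. In control MuSCs 57, 70 and 58 normalized counts were recorded, and in Taf4asKO MuSCs 77, 44 and 88. The highest and the lowest value both came from Taf4asKO, and the log2 fold change was 0.12 (SE 0.27, 95% interval -0.49 to 0.73, adjusted p = 0.813). Whether Mthfd2 differed in its change from Psat1 or Phgdh was not tested.

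Per kilobase of exon, Atf4 was highest with 1781 normalized counts per kb in control and 2203 in Taf4asKO MuSCs. Psat1, Ddit3 and Eif2ak3 followed in control with 128, 118 and 86.5. In Taf4asKO, Ddit3 stood at 243, Eif2ak3 at 80.9 and Psat1 at 60.8. Phgdh, Sesn2 and Mthfd2 had 38.1, 27.5 and 17.7 in control and 19.4, 37.2 and 19.98 in Taf4asKO. Chac1, Asns and Trib3 had the lowest levels, of 6.5, 4.6 and 2.8 in control and 4.9, 11.1 and 2.5 in Taf4asKO, respectively. In the controls, library ranges overlapped among Psat1, Ddit3 and Eif2ak3, between Phgdh and Sesn2, between Sesn2 and Mthfd2, and among Chac1, Asns and Trib3, so that these neighbours were not separated beyond their spread.

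The libraries of a group did not vary alike. Taf4asKO replicate 1 was the highest of its group for 5 of 10 genes and the lowest for 2, while Taf4asKO replicate 3 was the lowest for 6. In Taf4asKO replicate 1, the highest for Atf4 and Ddit3, Psat1 was the highest and Phgdh the lowest of the group. Leaving out Taf4asKO replicate 1 moved the log2 fold change of Ddit3 to 0.80, that of Sesn2 to 0.097 and that of Asns to 1.06, and left that of Psat1 past the threshold.

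**Figure D3:**
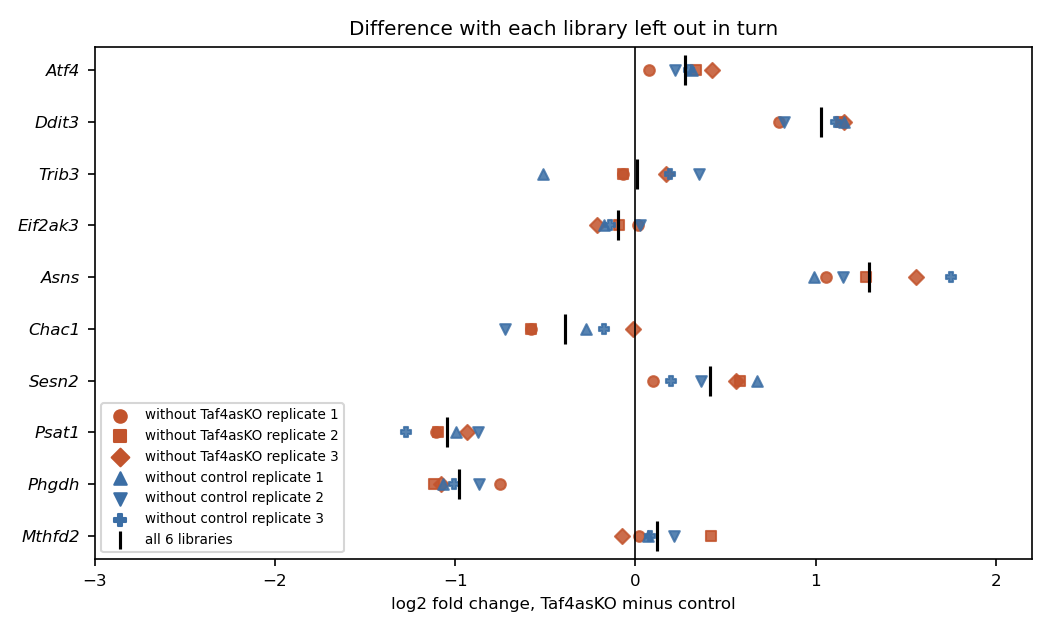
Log2 fold change of Taf4asKO minus control (x axis) for each of the 10 genes in all 6 libraries (black tick) and with each library left out in turn (red, a Taf4asKO library; blue, a control library). Ddit3 and Asns stay above 0 and Psat1, Phgdh and Chac1 below 0, whereas Trib3, Eif2ak3 and Mthfd2 fall on both sides.

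Of 9 paralogs 1 was called, a share of 11.1% against 12.6% of all genes tested. This was Eif2ak2, which encodes the double-stranded RNA sensor PKR (234 ± 37 to 347 ± 24.1, SD, n = 3, log2 fold change 0.58, SE 0.15, adjusted p = 0.0297). The call was lost when Taf4asKO replicate 1, 2 or 3 (0.64, 0.55 and 0.54, adjusted p = 0.0637, 0.125 and 0.128) or control replicate 1 (0.44, adjusted p = 0.0782) was left out. The other eIF2 alpha kinases, Eif2ak1 (HRI) and Eif2ak4 (GCN2), had log2 fold changes of 0.17 and -0.37 (adjusted p = 0.536 and 0.0671). Mthfd2l, the isozyme of Mthfd2, had -0.58 (adjusted p = 0.0623). The log2 fold changes of Trib1, Trib2, Sesn1, Sesn3 and Chac2 were -0.01, 0.25, 0.10, 0.30 and -0.17.

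The rest of the pathway was read from 5 lists with 85 genes in all, paralogs included, of which 83 were tested and 11 were called, 4 lower and 7 higher. Their share of 13.3% called was close to the 12.6% of all genes. Adding the replicate block made this 7 lower and 11 higher, or 21.7% of the list genes, against 18.1% of all genes with the block. The counts depended on single libraries, with 2 lower and 2 higher without Taf4asKO replicate 1, 2 and 2 without Taf4asKO replicate 2, 3 and 3 without Taf4asKO replicate 3, 5 and 4 without control replicate 1, and 5 and 13 without control replicate 2.

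Among 25 further ATF4 partners and targets, 23 of them tested, 3 rose and 2 fell, with a median log2 fold change of 0.03. This was 21.7% of the genes tested in the list, against 12.6% of all genes. Ddit4, which encodes the mTORC1 inhibitor REDD1, had 231, 332 and 332 normalized counts in the control libraries, against 826, 947 and 1802 in Taf4asKO. Its groups were far apart, with a log2 fold change of 1.93 (SE 0.26, adjusted p = 0.00173). Nupr1, a stress-induced chromatin protein gene, had 98, 107 and 152 against 244, 231 and 249 (log2 fold change 1.04, SE 0.18, adjusted p = 0.00543). Cebpb, a partner of ATF4, rose by 0.70 (SE 0.18, adjusted p = 0.0279), but lost the call without Taf4asKO replicate 1 (0.55, adjusted p = 0.104) or 2 (0.74, adjusted p = 0.0831), with limma-voom (adjusted p = 0.0649) and under total-count scaling (adjusted p = 0.0645). Atf5, a transcription factor that is translated like ATF4, fell from 390 ± 14 to 248 ± 11 (SD, n = 3, log2 fold change -0.65, SE 0.11, adjusted p = 0.00568). Slc7a1, a cationic amino acid transporter gene, fell by 0.61 on the log2 scale (adjusted p = 0.0156), a call that was lost without Taf4asKO replicate 1, 2 or 3 (adjusted p = 0.0518, 0.0797 and 0.0648). Atf3, chosen after its values were seen, had 3275, 1567 and 2163 against 9232, 3523 and 3911. Its log2 fold change of 1.17 (SE 0.35) just missed the threshold (adjusted p = 0.0524) and passed it with the replicate block (adjusted p = 8.69e-05). The same held for Bcat1 (-1.03, adjusted p = 0.0579, and 0.00205 with the block), likewise chosen after its values were seen.

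Around Phgdh and Psat1, 18 other genes of serine, glycine and folate metabolism were tested, of which 2 fell and 2 rose (median log2 fold change 0.07). This was 22.2% of the list, against 12.6% of all genes. Shmt1, the cytosolic enzyme that interconverts serine and glycine, had 337, 417 and 346 normalized counts in the control libraries, against 205, 189 and 190 in Taf4asKO. This decrease of -0.90 on the log2 scale (SE 0.13, adjusted p = 0.00247) was kept in 13 of 13 alternative settings. Mthfd1l, which makes formate in mitochondria, fell by 0.67 (SE 0.16, adjusted p = 0.0225) and lost the call without Taf4asKO replicate 1 or 2 or control replicate 3 (adjusted p = 0.0869, 0.0921 and 0.0569). Psph, the last enzyme of serine synthesis, had a mean of 51 ± 12.2 in control and 52 ± 16.1 in Taf4asKO (SD, n = 3, log2 fold change 0.01, adjusted p = 0.988), and was picked out after its values were seen as the step that follows Psat1. Aldh1l1, a folate dehydrogenase gene, rose by 1.65 (SE 0.47, adjusted p = 0.0442). Aldh1l1 had 51, 29 and 155 normalized counts in the control libraries, against 209, 179 and 200 in Taf4asKO. The summed fibro-adipogenic markers of the same libraries were 9788, 28157 and 48619, against 30043, 57993 and 53102. A link of Aldh1l1 to these markers was not tested. The log2 fold change of Aldh1l1 was 1.13 without control replicate 2 and 2.32 without control replicate 3. It lost the call without any one of the 5 libraries other than control replicate 3 (adjusted p from 0.0781 to 0.133), and under total-count (adjusted p = 0.0609) and upper-quartile scaling (adjusted p = 0.0575).

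Of 13 genes of eIF2, its exchange factor eIF2B and their regulators, 7.69% were called, against 12.6% of all genes. The only gene called was Impact, which encodes an inhibitor of GCN2 (419 ± 108 to 656 ± 40.4, SD, n = 3, log2 fold change 0.68, SE 0.17, adjusted p = 0.0309). It lost the call under total-count scaling (adjusted p = 0.0622), upper-quartile scaling (adjusted p = 0.0534) and limma-voom (adjusted p = 0.0587) and without control replicate 1 or Taf4asKO replicate 1, 2 or 3 (adjusted p = 0.0516, 0.0847, 0.128 and 0.0928). Ppp1r15a, the stress-induced eIF2 alpha phosphatase subunit GADD34, was chosen after its values were seen and had a log2 fold change of 0.43 (SE 0.15, adjusted p = 0.095, and 0.0149 with the replicate block). Dele1, whose product relays mitochondrial stress to HRI, was likewise chosen with its values known and had -0.47 (SE 0.14, adjusted p = 0.0563, and 0.0286 with the block) and was called lower in 6 of 13 alternative settings, as many as kept the call of Impact. None of the 20 genes of the ATF6 and IRE1 arms and the ER chaperones was called by limma, against 12.6% of all genes, or by limma-voom. Of the 20, 3 had an unadjusted p under 0.05, and 1 was called with the replicate block, Herpud1 (log2 fold change 0.40, adjusted p = 0.0628, and 0.019 with the block). Dnajc3, an ER co-chaperone gene, missed only the fold limit (log2 fold change 0.36, adjusted p = 0.0447), and 2 genes, Dnajc3 and Pdia3, were called without control replicate 2. Herpud1, Dnajc3 and Pdia3 were picked out with their values in view. The log2 fold changes of all 20 genes ran from -0.30 to 0.40. Hspa5, the ER chaperone BiP, also named after its values were seen, had 17476 normalized counts in Taf4asKO replicate 1 and 10068 to 11208 in the 5 other libraries (log2 fold change 0.14, adjusted p = 0.665). The library that was highest for Atf4, Ddit3 and Atf3 was also the one with high Hspa5, but the other genes of this list were not alike there. Hyou1 and Pdia4 were lowest of all libraries in Taf4asKO replicate 1 (1293 and 1367). Ern1, Atf6, Atf6b, Dnajb9, Dnajc3, Edem1 and Herpud1 were highest in it. These genes, too, were read with their values known, and a common cause was not tested.

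**Figure D4:**
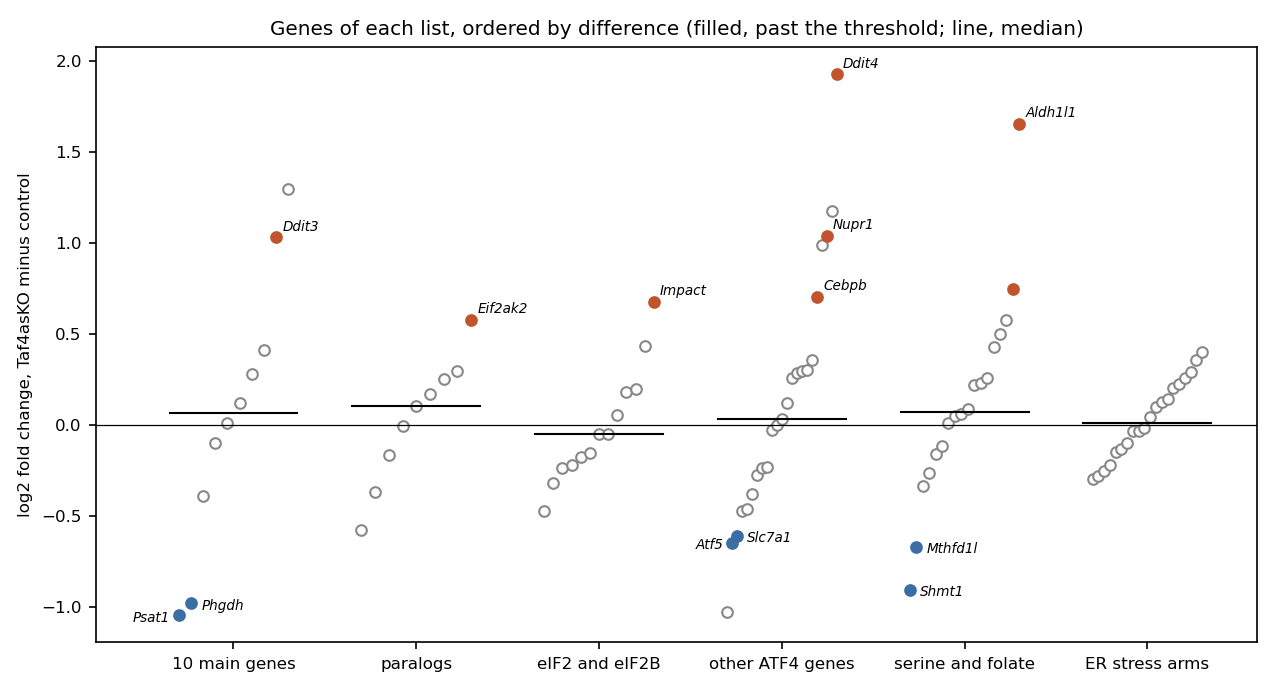
Log2 fold change of Taf4asKO minus control (y axis) for each tested gene of the 10-gene set and of the 5 lists of related genes, ordered by value within a list. Filled points passed the threshold (red, higher; blue, lower) and lines give the medians, which all lie between -0.05 and 0.10. Ddit4 at 1.93 and Aldh1l1 at 1.65 were the largest increases called, and no gene of the ER stress arms was called.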

How the data were processed

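RNA-seq libraries of 3 control and 3 Taf4asKO MuSC samples were grouped by their titles. The authors trimmed reads (Trimmomatic 0.39), aligned them to mm10 (STAR 2.6.0c), counted reads within exons without multi-mapping or multi-gene reads (featureCounts 1.6.0), and deposited counts divided by DESeq2 1.14.1 size factors and rounded, here treated as a score and called normalized counts. Use of strand in counting is not given in the sources used here. The methods give an average read number but no raw depth per library for these values, so no counting intervals were given.

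Values were tested here after log2(value + 1) transformation, so that fold changes of genes with few counts come out too small, by two-sided moderated tests in limma (3.58.1, R 4.3.3; lmFit, eBayes with trend), over 18562 genes with a mean of at least 5. Benjamini-Hochberg adjusted p under 0.05 over all genes tested and a fold change of at least 1.3 were required. The script was tested on simulated data. The study speaks of biological replicates, but the labels do not tie libraries to animals, so p-values measure the spread between these samples. Deviations from the group means had r = 0.235, 0.126 and 0.15 across genes between same-numbered libraries, and -0.149 to 0.0141 between the others. Such deviations cancel within a group, so positive values for equal numbers push the others to negative ones. The labels give no pairing, so pairing was not established and the main fit left the replicate number out. A fit with the replicate block was an alternative. Others were other scalings, pseudocounts, filters, fold limits, limma-voom and leaving out each library.

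The 10 genes and all lists were chosen with earlier results of these data known. Named genes were these 10, their paralogs and, per list, up to 4 called genes with the largest change and a mean of at least 20, or all called genes where 5 or fewer were called. Coordinates are as deposited (mm10). Exon lengths and overlaps came from GENCODE M21, in which 7 of 10 genes have the same position. Promoters came from RefSeq (GRCm38.p6), with all 10 genes matched. Slc7a11, Fgf21, Ptprc and Adgre1 were not analysed here, and 1 called gene of the lists is counted but not reported by name. Figures were drawn with matplotlib 3.10.9.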

Additional observations from a re-analysis of the deposited data

How the results depend on the processing

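Of 128 alternative values for the 10 genes, 114 kept their direction and their side of the threshold, 6 lost a call, 1 gained one and 7 turned direction. Of 247 for the other named genes, 206 kept both, 33 lost a call, 2 gained one and 6 turned. With the replicate block, 7 genes of the related lists were lower and 11 higher, in place of 4 and 7, and 1667 of all genes were lower and 1688 higher, in place of 1246 and 1101. The block changed no call among the 10 genes, and no gene of the lists that was called without it lost its call. Total-count scaling left 4 higher list genes. With a fold change of at least 2, 520 genes were lower and 330 higher in the whole table, 1 of the 10 genes was lower and 1 higher, and 0 list genes were lower and 3 higher. Leaving out 1 library gave 595 to 1489 lower and 350 to 1607 higher genes in all, 1 to 2 lower and 0 to 2 higher of the 10 genes, and 2 to 5 lower and 2 to 13 higher list genes. The log2 fold change crossed 0 when 1 library was left out for Trib3 (-0.52 to 0.35), Eif2ak3 (-0.21 to 0.024), Mthfd2 (-0.075 to 0.42), Trib1 (-0.38 to 0.22), Sesn1 (-0.00071 to 0.26), Chac2 (-0.30 to 0.080), Psph (-0.22 to 0.19) and Hspa5 (-0.12 to 0.28). It was -0.014 for Trib3 with upper-quartile scaling. The causes were not tested. With a mean of at least 20 required, Trib3 and Chac1 were not tested. Their counts and those of Asns limit what can be detected.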
